A study of Chlorocebus sabaeus with 3 samples.

Results

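The genes described here are 10 transcription factors of basal and differentiating epithelium: TP63, BNC1, GRHL1, GRHL2, GRHL3, OVOL1, KLF4, KLF5, ELF3 and EHF. They were picked by gene name, with earlier results of these data known, and all 10 were among the 33994 genes listed in each file. The RNA was cell-free RNA from the supernatant of amniotic fluid of 3 vervet monkeys (Chlorocebus sabaeus). The status label gives 1 pregnancy as stillborn (sex label M), 1 as a spontaneous abortion (sex label NA) and 1 as alive (sex label F). All 3 libraries were made from 100 ng of total RNA by the same SPIA amplification, an isothermal cDNA amplification from a single primer. The sources used here do not give gestational age, the animals' age or the way the fluid was taken.

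Stratified and simple epithelia are built under a small group of factors. TP63 keeps the basal layer in its progenitor state, and BNC1 (basonuclin) is a zinc finger protein of proliferating basal keratinocytes and germ cells. The grainyhead-like proteins GRHL1, GRHL2 and GRHL3 activate junction, adhesion and barrier genes, with GRHL2 broadly active in simple and stratified epithelia and GRHL3 tied to the formation of the skin barrier. OVOL1 and KLF4 act as cells leave the basal layer, KLF5 is a factor of proliferating epithelium, and ELF3 and EHF are epithelium-specific members of the ETS family. In amniotic fluid such RNA can come from fetal skin, mouth, airway and gut lining or from the amnion, and the fluid alone does not tell these apart.

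With 1 library per status there is no spread between animals, so the ratios below set library against library. No p-value is given, and the intervals cover counting error only. Levels are given as RPKM, a read number divided by gene length and by library size, and the read numbers behind them were recovered from the printed values. The libraries held 17749954 (stillborn), 29926352 (spontaneous abortion) and 20220899 (alive) reads, of which the recovered numbers account for 96.6% to 97.1%. A gene is called apart when its scaled ratio is at least 4-fold, the exact 95% interval excludes 1 and the higher library has at least 30 reads.

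KLF4 had the highest level of the set in every library and KLF5 the next, followed by GRHL2. KLF4 was at RPKM 35.2 in the stillborn library, 38.9 in the spontaneous abortion library (the abortion library below) and 27.4 in the alive library, which was rank 1162, 1067 and 1578 among all genes. KLF5 was at 18.5, 19.6 and 14.5 in the same order, and GRHL2 at 6.10, 9.93 and 10.6. The set therefore runs from factors among the more abundant transcripts of the fluid to a factor with 0 reads in 1 library. At the low end, TP63 was at RPKM 0.316, 0.142 and 0.143, BNC1 at 0, 0.175 and 0.804, and OVOL1 at 0.108, 0.137 and 0.0472. GRHL1, GRHL3, ELF3 and EHF lay between 0.860 and 4.07 in all libraries. Summed over the set, RPKM was 71.4 in the stillborn library, 76.95 in the abortion library and 57.9 in the alive library.

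**Figure D1:**
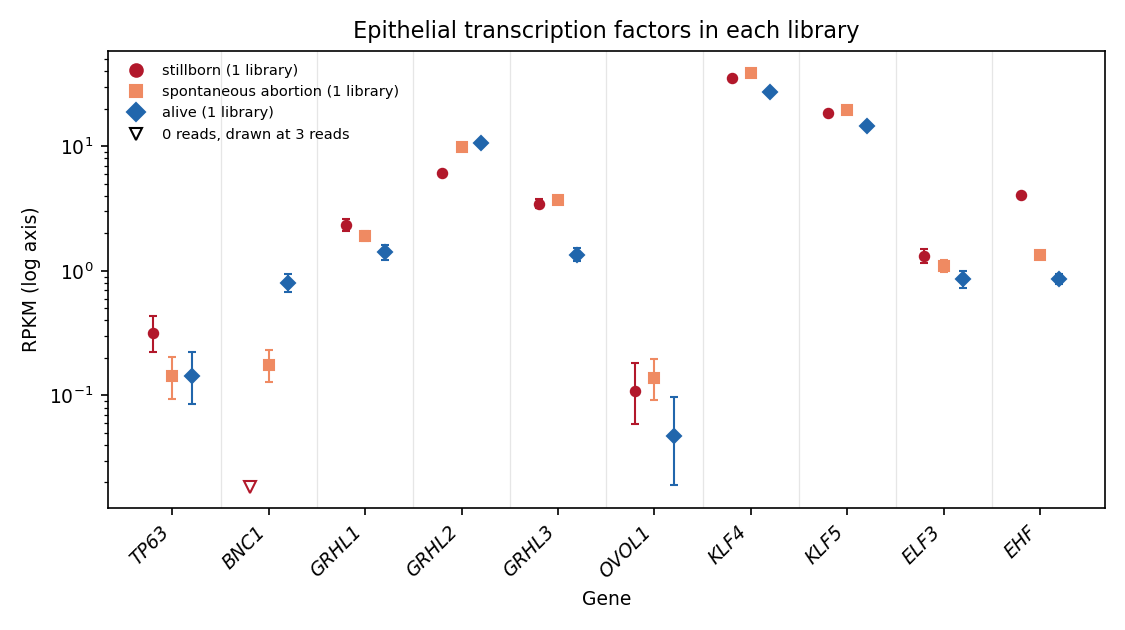
RPKM (log axis) of the 10 epithelial transcription factors in each of the 3 libraries, with exact 95% Poisson intervals that cover counting error only. KLF4 and KLF5 lie highest in every library, and BNC1, with 0 reads in the stillborn library, is drawn there as an open triangle at the value of 3 reads.

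Some neighbours in this order did not differ beyond counting error. In the alive library EHF (RPKM 0.863, interval 0.787 to 0.944) and ELF3 (0.860, interval 0.735 to 1.001) overlapped, as did GRHL1 (1.41, interval 1.22 to 1.61) and GRHL3 (1.35, interval 1.19 to 1.52). In the abortion library the intervals of BNC1, TP63 and OVOL1 overlapped one another. The order also depends on the gene lengths by which the authors divided. The smallest lengths that make the reads whole were 5861 bases for KLF4, 6846 for KLF5, 22484 for GRHL2 and 27447 for EHF. In reads instead of RPKM, GRHL2 came first in the alive library with 4799, ahead of KLF4 with 3249, and EHF in the stillborn library (1981 reads) came close to KLF5 (2248 reads). Ratios of a gene between libraries do not contain the length.

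The basal factors BNC1 and TP63 lay on opposite sides in the stillborn library, BNC1 lowest there and TP63 highest. BNC1 had 0 reads in the stillborn library, 48 in the abortion library and 149 in the alive library. The stillborn library was 39.0-fold lower than the alive library with its 0 reads taken as 3, and the abortion library was 4.47-fold lower (interval 3.21 to 6.32). Against the abortion library the stillborn library was 8.72-fold lower by the same floor. BNC1 was thus apart in all 3 comparisons, with the alive library highest. The bound of the exact interval lay closer to 1, at 31.3-fold for stillborn against alive and 6.82-fold for stillborn against spontaneous abortion. With all libraries thinned to the smallest total, BNC1 fell under 30 reads in the abortion library and was no longer apart between the losses.

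TP63 had 37, 28 and 19 reads in the stillborn, abortion and alive libraries. It was 2.48-fold higher in the stillborn than in the alive library (1.39 to 4.57) and 2.43-fold higher than in the abortion library (1.44 to 4.11). Between the spontaneous abortion and the alive library the ratio was 1.02 (0.552 to 1.94), and 0.996 on total reads alone. Reads per gene do not separate the long from the short amino-terminal forms of p63. The ratio of BNC1 to TP63 within a library needs no scaling between libraries, and it was 5.64 in RPKM in the alive library, 1.23 in the abortion library and 0 in the stillborn library. From the alive to the abortion library this ratio was 4.57-fold lower (exact interval of the odds ratio 2.23 to 9.45).

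Basal epithelial genes are set beside these factors. Of 21 basal genes on the list 20 were measured, and 19 had at least 30 reads in the higher of the stillborn and alive libraries. In that comparison 2 of 19 were apart as higher and 2 as lower, where 4.71% and 3.23% of all genes compared were. For spontaneous abortion against alive 1 was higher and 0 were lower (2.30% and 1.51% over all genes), and for stillborn against spontaneous abortion 0 were higher and 2 lower (2.81% and 1.65%). Nothing about the list is read from these counts. KRT15, a keratin of basal progenitors, was at RPKM 2.41 in the stillborn library, 12.5 in the abortion library and 16.3 in the alive library, and P-cadherin (CDH3), a basal adhesion protein, at 0.315, 1.57 and 1.75. Both were apart as lower in the stillborn library, KRT15 at 6.04-fold lower than alive (5.31 to 6.90) and CDH3 at 4.97-fold (3.12 to 8.29). KRT5, the basal keratin, was at 49.1, 151 and 151, and KRT17 (listed as LOC103243446), a keratin of appendages and stressed epidermis, at 170, 349 and 511. These 4 genes, like BNC1, were lowest in the stillborn library. On the other side stood KRT14, the keratin that pairs with KRT5, at RPKM 31.7, 9.64 and 3.78, which was 9.39-fold higher in the stillborn than in the alive library (8.05 to 11.0), and the hemidesmosomal collagen COL17A1 at 2.39, 1.26 and 0.317. COL17A1 was 8.44-fold (6.96 to 10.3) higher in the stillborn library and 4.08-fold higher in the abortion library (3.36 to 4.98) than in the alive library. PERP, a desmosomal protein, was at 97.5, 58.7 and 39.6 and so highest in the stillborn library. In RPKM, KRT14 over KRT5 was 0.646 in the stillborn library, 0.0639 in the abortion library and 0.0251 in the alive library. Keratins have close copies, so the way the authors' counting treated reads shared among them could affect these values.

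**Figure D2:**
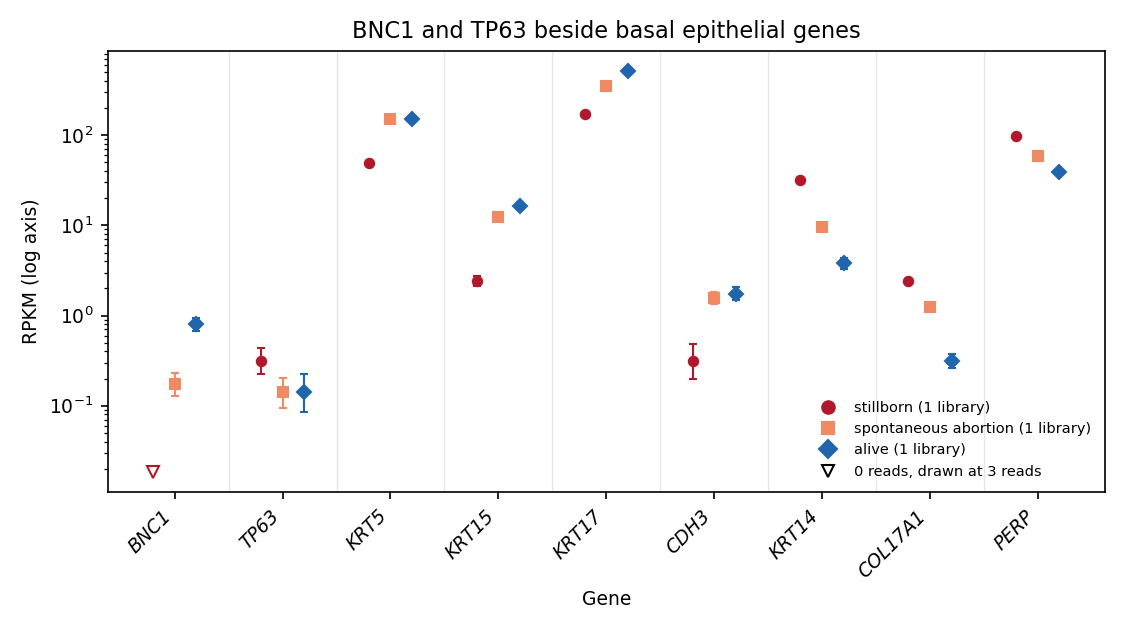
RPKM (log axis) of BNC1 and TP63 beside 7 basal epithelial genes in each library, with exact 95% Poisson intervals for counting error. BNC1, KRT5, KRT15, KRT17 and CDH3 are lowest in the stillborn library, while TP63, KRT14, COL17A1 and PERP are highest there.

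Within the grainyhead family the make-up differed from library to library. GRHL2 held 79.3% of the family's summed RPKM in the alive library, 64.0% in the abortion library and 51.3% in the stillborn library. GRHL3 held 10.1%, 23.8% and 29.1% in that order, and GRHL1 10.6%, 12.2% and 19.6%. By reads, which are not divided by length, the GRHL2 share was 91.0%, 81.6% and 72.8%, that of GRHL3 5.10%, 13.3% and 18.1%, and that of GRHL1 3.94%, 5.08% and 9.06%. The size of a share thus depends on the lengths, while the order of the libraries was the same on both scales. The family's summed RPKM itself was 13.3, 15.5 and 11.9. GRHL2 was thus the leading member everywhere, but by a narrower margin in both losses.

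GRHL3 had 606 reads in the stillborn library, 1089 in the abortion library and 269 in the alive library, or RPKM 3.47, 3.69 and 1.35. It was 2.87-fold (2.48 to 3.33) higher in the stillborn library and 2.81-fold higher in the abortion library (2.46 to 3.22) than in the alive library. Between the losses the ratio was 1.02 (0.923 to 1.13). It passed to 0.938 on total reads alone and to 0.748 with scaling to epithelial junction genes. That scaling uses the summed RPKM of the junction and adhesion genes listed below, most of which was RAB25. GRHL1 was at RPKM 2.33, 1.90 and 1.41, which made the stillborn library 1.86-fold higher (1.55 to 2.23) and the abortion library 1.39-fold higher (1.17 to 1.65) than alive. GRHL2 was 1.55-fold lower in the stillborn than in the alive library (1.47 to 1.62). In the abortion library its ratio over alive was 0.967 (0.932 to 1.004), and it passed to 1.07 when libraries were scaled to epithelial junction genes.

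Because the members of a family share a library, their ratio to each other is free of scaling. GRHL3 over GRHL2 was 0.128 in RPKM in the alive library, 0.372 in the abortion library and 0.568 in the stillborn library. From alive to stillborn that ratio was 4.44-fold higher (exact interval of the odds ratio 3.81 to 5.18), and from alive to spontaneous abortion 2.91-fold higher (2.53 to 3.35). For GRHL1 over GRHL2 the same steps were 2.87-fold (2.38 to 3.46) and 1.44-fold (1.21 to 1.71). Of the more distant CP2-type relatives of the family, TFCP2 was at RPKM 5.40, 6.09 and 6.95, UBP1 at 11.6, 11.8 and 12.3 and TFCP2L1 at 0.475, 0.387 and 0.569 in the stillborn, abortion and alive libraries. Their ratios of stillborn over alive were 0.869, 1.06 and 0.935, and those of spontaneous abortion over alive 0.901, 0.986 and 0.699 (TFCP2L1 interval 0.554 to 0.882).

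KLF4 and KLF5 kept nearly the same proportion to each other in all libraries. KLF4 was 1.44-fold (1.37 to 1.51) higher in the stillborn library and 1.46-fold higher in the abortion library (1.40 to 1.52) than in the alive library. For KLF5 these ratios were 1.43 (1.35 to 1.52) and 1.39 (1.32 to 1.47). KLF4 over KLF5 was 1.90, 1.99 and 1.89 in RPKM in the stillborn, abortion and alive libraries. Relative to alive that ratio was 1.01-fold in the stillborn library (0.931 to 1.09) and 1.05-fold in the abortion library (0.980 to 1.12). For stillborn over spontaneous abortion KLF4 had a ratio of 0.984 (0.945 to 1.03) and KLF5 one of 1.03 (0.975 to 1.08), which passed to 0.944 on total reads alone and to 0.752 with scaling to epithelial junction genes.

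ELF3 and EHF, the pair of ETS factors, had a different proportion to each other in the stillborn library than in the alive library. EHF had 1981, 1099 and 479 reads in the stillborn, abortion and alive libraries, or RPKM 4.07, 1.34 and 0.863. It was 5.27-fold higher in the stillborn than in the alive library (4.77 to 5.84), the only factor of the set apart as higher in that comparison. It was 3.31-fold higher in the stillborn than in the abortion library (3.07 to 3.57) and 1.59-fold higher in the abortion library than in the alive library (1.43 to 1.78). ELF3 was at RPKM 1.31, 1.10 and 0.860. It was 1.71-fold (1.39 to 2.10) higher in the stillborn library and 1.32-fold higher in the abortion library (1.09 to 1.60) than in the alive library. EHF over ELF3 was 1.003 in RPKM in the alive library, 1.21 in the abortion library and 3.10 in the stillborn library, and from alive to stillborn that ratio was 3.09-fold higher (2.45 to 3.88). The near equality in the alive library holds only per length, since EHF had 479 reads there and ELF3 168. The smallest lengths that make the reads whole, which are lower bounds, were 27447 and 9656 bases. The fold between libraries does not contain the lengths.

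**Figure D3:**
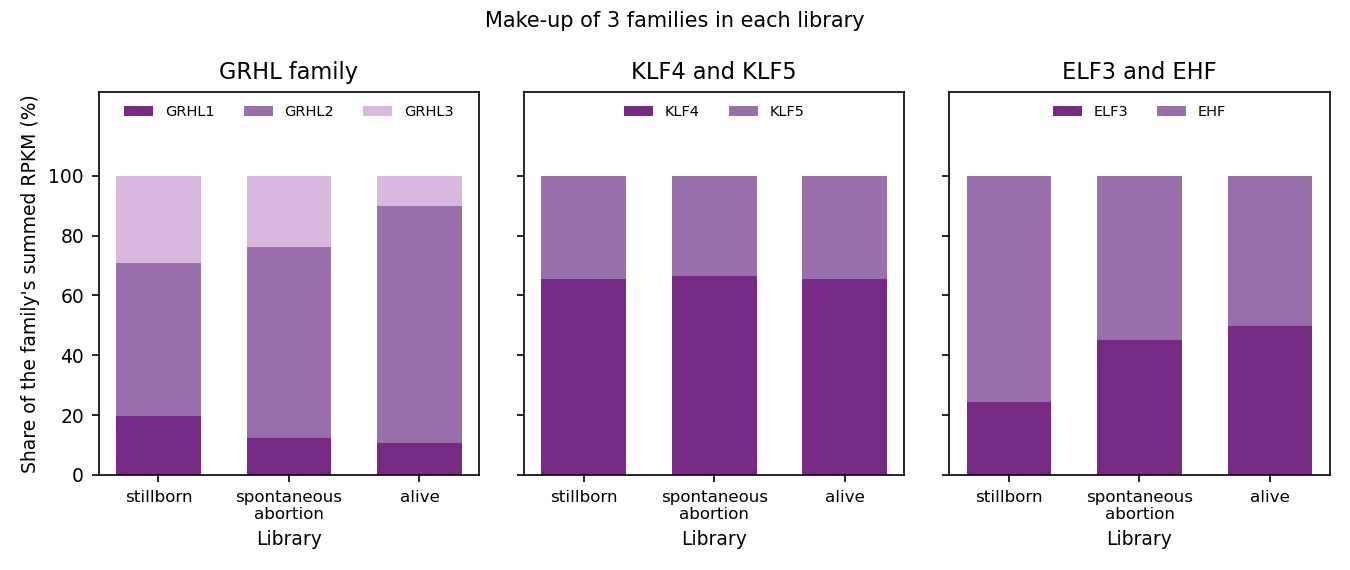
Share (%) of each family's summed RPKM held by its members in the 3 libraries, as stacked bars. GRHL2 holds 79.3% in the alive and 51.3% in the stillborn library, KLF4 between 65.4% and 66.5%, and EHF 50.1% in the alive and 75.6% in the stillborn library.

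OVOL1, a zinc finger repressor that helps basal cells stop dividing, gave few reads, with 14 in the stillborn library, 30 in the abortion library and 7 in the alive library. The ratio of spontaneous abortion over alive was 2.98 (1.28 to 8.03). That of stillborn over alive was 2.55 (0.963 to 7.46), which is not told from 1 at this depth. Its relative OVOL2 was at RPKM 1.44, 1.31 and 1.47, so most of the OVO family's reads came from OVOL2 in every library.

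Counted over the set, 9 of the 10 factors met the read minimum for stillborn against alive. EHF was apart as higher and BNC1 as lower. Over all 13496 genes with that many reads 4.71% were apart as higher and 3.23% as lower, and nothing about the set is read from 1 of 9 in each direction. For spontaneous abortion against alive 0 of 9 were apart as higher (background 2.30%) and 1 as lower, BNC1 (background 1.51%). For stillborn against spontaneous abortion 0 of 10 were apart as higher (background 2.81%) and 1 as lower, again BNC1 (background 1.65%).

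At 2-fold in place of 4-fold, 3 factors were higher in the stillborn than in the alive library, TP63, GRHL3 and EHF, against a background of 13.1%, and BNC1 was lower (12.5%). In the abortion library GRHL3 and OVOL1 were higher than alive (7.68%) and BNC1 lower (5.71%). Between the losses TP63 and EHF were higher in the stillborn library (7.54%) and BNC1 was lower (7.48%). The comparisons with the alive library share that library, so their values are not independent.

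**Figure D4:**
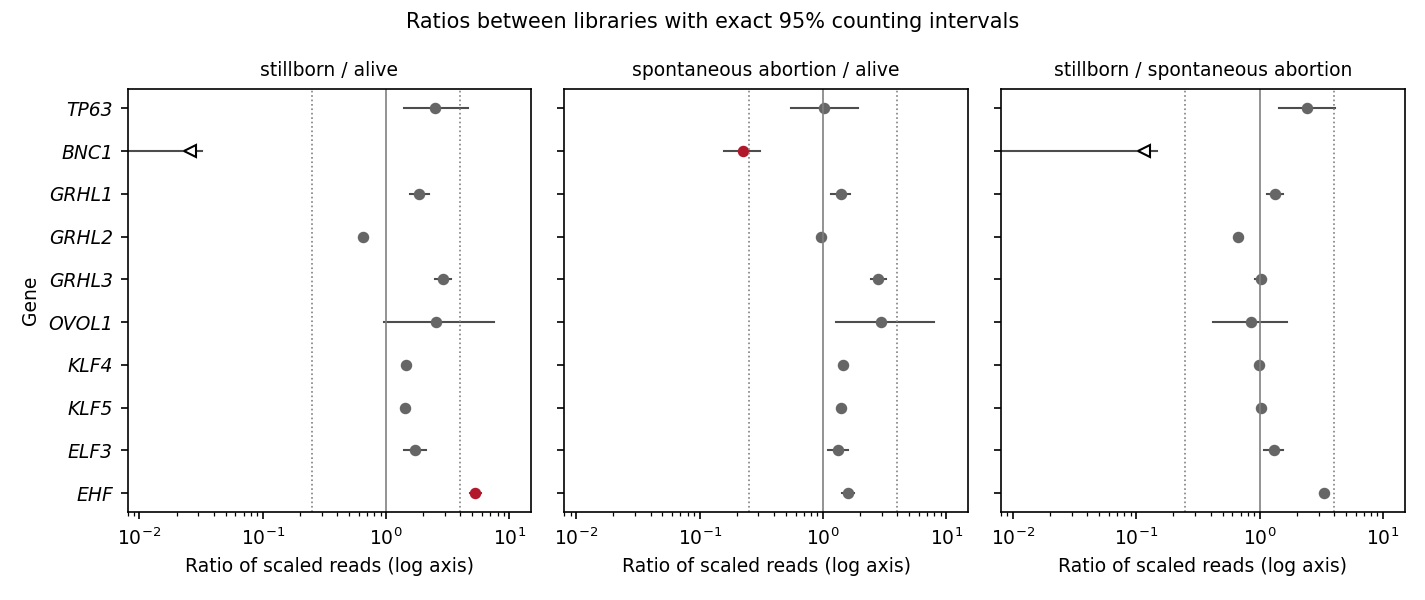
Ratios of scaled reads (log axis) for the 10 factors in the 3 comparisons of libraries, with exact 95% intervals for counting error. Solid lines mark a ratio of 1 and dotted lines 4-fold, red points are apart, and open triangles mark BNC1 with 0 stillborn reads taken as 3, which is apart too. EHF at 5.27 is the only factor past 4-fold on the high side.

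The median log2 ratio was taken over the 7 factors with a mean RPKM of at least 1 (GRHL1, GRHL2, GRHL3, KLF4, KLF5, ELF3 and EHF) on the scale log2(RPKM + 0.1), which leaves out TP63, BNC1 and OVOL1. It was 0.71 for stillborn over alive, with 6 of 7 above 0. Over the 10229 genes that passed the same limit it was -0.01, with 5038 above 0. For spontaneous abortion over alive it was 0.47, with 6 of 7 above 0, beside -0.01 and 5071 of 10229. GRHL2 was the factor below 0 in both. For stillborn over spontaneous abortion the median was 0.04, with 5 of 7 above 0, beside -0.02 and 4916 of 10229.

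Beside the set stood 25 relatives from the same families. In the alive and stillborn libraries 21 of them had enough reads to be compared. ELF5, an ETS factor of glandular and placental epithelium, was apart as higher and KLF2, a factor of endothelium and quiescent lymphocytes, as lower. Nothing about the relatives is read from these counts, since 4.71% of all genes were higher and 3.23% lower. ELF5 was at RPKM 6.69 in the stillborn library, 2.60 in the abortion library and 0.572 in the alive library, or 13.1-fold (8.16 to 22.2) and 4.68-fold (2.88 to 8.03) higher than alive. ELF3, EHF and ELF5, 3 epithelium-restricted ETS genes, thus had the same order of libraries, with stillborn highest and alive lowest. With scaling to epithelial junction genes, however, ELF3 in the stillborn passed below the abortion library, at 0.948. SPDEF, another ETS gene of the list, had 0, 1 and 0 reads in the stillborn, abortion and alive libraries and gives no order. The broadly expressed ETS genes did not share the order of ELF3, EHF and ELF5. ELF1 was at RPKM 26.6, 31.3 and 28.9, ELF4 at 19.0, 25.6 and 32.5, and ETS2 at 25.4, 63.7 and 46.8. KLF2 was 4.21-fold lower in the stillborn than in the alive library (2.56 to 7.28). The most abundant KLF genes, KLF6 at 78.6, 91.9 and 58.2 and KLF3 at 44.6, 46.0 and 39.4, lay above KLF4. BNC2, the paralog of BNC1, was at 0.295, 0.524 and 0.578, lowest in the stillborn library as BNC1 was.

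**Figure D5:**
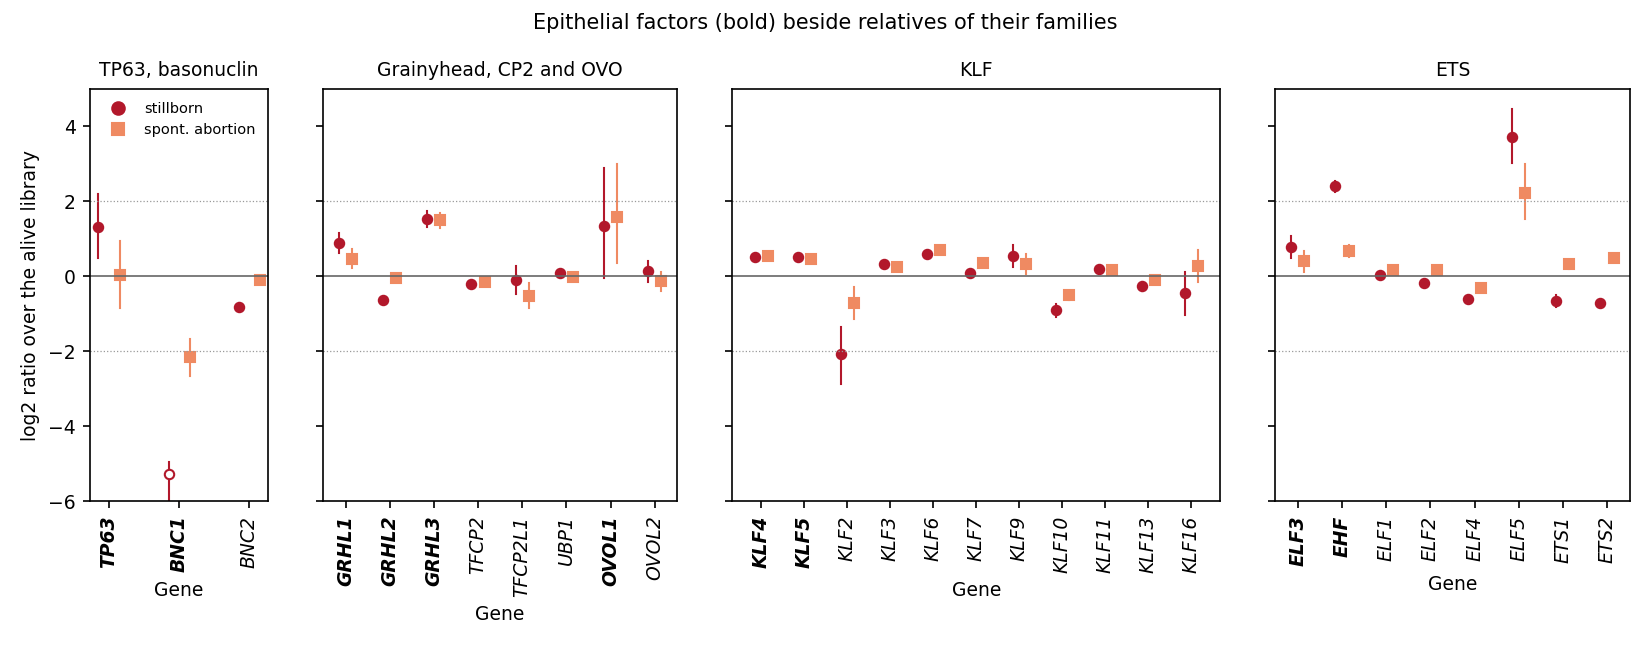
Log2 ratios over the alive library of the 10 factors (bold) and of relatives from their families, for the stillborn (circles) and spontaneous abortion (squares) libraries, with exact 95% counting intervals. TP73, OVOL3, SPDEF and KLF15, each under 30 reads, are not drawn, and the open circle marks BNC1 at 0 stillborn reads. ELF5 at 13.1-fold and EHF at 5.27-fold stand highest and BNC1 lowest in the stillborn library.

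Of 29 other transcription factors of epithelia, 22 could be compared between stillborn and alive. PITX1, PAX9 and NKX2-1 were apart as higher in the stillborn library and 0 as lower. Over all genes compared, 4.71% were higher and 3.23% lower. PAX9, a factor of oral and pharyngeal epithelium, was at RPKM 1.67 against 0.212 in the abortion library and 0.236 in the alive library, 7.90-fold higher than alive (4.55 to 14.7). PITX1, a factor of the oral and hindlimb regions, was 12.7-fold higher than alive (5.87 to 32.9), with 70 reads against 7. NKX2-1, a factor of lung and thyroid, was 11.8-fold higher (5.43 to 30.6), with 65 reads against 7. The 3 most abundant were GATA3 at 46.3, 61.1 and 48.8, HOPX, a homeodomain-only protein, at 91.4, 36.9 and 25.9, and TFAP2A, an early epidermal factor, at 18.7, 24.0 and 26.3. HOPX lay just under 4-fold in the stillborn library, at 3.95.

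Lists of genes that such factors are known to act on are set beside them as measured. Of 19 junction and adhesion genes, the class under grainyhead control, MARVELD3, a tight junction protein, was apart as higher in both losses, 10.05-fold (6.05 to 17.8) and 7.11-fold (4.31 to 12.5), at RPKM 1.72 in the stillborn library, 1.32 in the abortion library and 0.191 in the alive library. It was 1 of 17 compared for stillborn and 1 of 18 for spontaneous abortion against alive (4.71% and 2.30% over all genes). RAB25, an epithelial trafficking GTPase, was at 172, 134 and 162, and ESRP1, an epithelial splicing factor, at 8.64, 10.5 and 10.1. The summed RPKM of the 19 genes was 235, 187 and 212, so most of it was RAB25. The median log2 ratio over the 12 of them with a mean RPKM of at least 1 was 0.50 for stillborn over alive and 0.04 for spontaneous abortion over alive. Of 19 measured squamous differentiation genes 16 met the read minimum. Of these, 7 were apart as higher in the stillborn library (4.71% over all genes) and 2 in the abortion library (2.30%), and the median log2 ratios over the 13 with a mean RPKM of at least 1 were 1.64 and 0.72. Of the 5 simple epithelial genes 0 were apart (for stillborn against alive 4.71% higher and 3.23% lower over all genes). Their summed RPKM was 450.4 in the stillborn library, 607 in the abortion library and 768 in the alive library. KRT19 was at 316, 434 and 554, KRT18 at 90.4, 109.95 and 124 and KRT7 at 32.9, 40.8 and 60.5, so all 3 were lowest in the stillborn library, as GRHL2 was.

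Some of the factors are also made outside epithelium, KLF4 in myeloid and endothelial cells among them. Myeloid markers were highest in the stillborn library. The summed RPKM of the 10 measured was 71.2 there, 16.3 in the abortion library and 19.3 in the alive library. S100A8 and S100A9, 2 of the 8 compared, were apart as higher than alive, as 4.71% of all genes were. For stillborn against spontaneous abortion 4 of 8 were apart as higher (2.81% over all genes). For spontaneous abortion against alive 1 of 6 was apart as lower (1.51%). CSF3R had 0 reads in the stillborn and alive libraries, and S100A8 had 0 in the alive library. KLF4 was at RPKM 35.2 in the stillborn library, 38.9 in the abortion library and 27.4 in the alive library. The part of myeloid RNA in the values of KLF4 and the other factors was not tested. Endothelial markers were low, with a summed RPKM of 1.23 to 1.54 over 8 genes and CDH5 and CLDN5 at 0 in every library. Against alive, 1 of 3 compared was apart as lower in the stillborn library (3.23% over all genes). The abortion library also had 1 of 3 apart as lower than alive (1.51%). Fibroblast markers summed to 301, 329 and 224. In such cell-free RNA, the number of cells of a type, the RNA per cell and how much of it reached or lasted in the fluid cannot be told apart. Status and the animal's sex label also cannot be told apart, since each status is 1 animal.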

How the data were processed

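The files hold 1 RPKM value per gene and library. Per the submitters' processing notes the reads went through bcl2fastq 2.17, STAR and HTSeq. The sources used here do not give how the authors turned reads into the deposited RPKM values, nor the genome build, annotation and strand setting, so no coordinates are printed.

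Values carry up to 10 digits. Whole library totals that fit the fixed ratios between libraries and make gene lengths whole were searched for, and each gene's reads were taken at the smallest length, up to 300000 bases, that makes them whole within rounding. This held for 99.97% of the 23276 genes above 0, and 8 genes were left out. Each read number is a lower bound, since a factor common to reads and length is not seen. The steps were tested on simulated data, where all 3 totals were recovered. Reads were right for 92.4% of the 3299 genes checked, and 0 genes were above the true number. Only genes with reads in every library were checked, so a gene with 0 reads in a library, as BNC1, was not covered.

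Libraries were scaled by TMM factors (trimmed mean of M-values, trims of 30% and 5%), computed in Python 3.11.15 with numpy 2.4.6: 0.936 (stillborn), 1.02 (spontaneous abortion) and 1.05 (alive). Intervals of ratios are Clopper-Pearson intervals given the summed reads of both libraries, and those of odds ratios are the exact conditional ones of scipy 1.17.1. SPIA reads carry no molecular identifiers here, so intervals and floors cover counting error only.

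The named genes are the 10 factors and, from the other lists, genes apart in a comparison and the 3 with the highest mean RPKM. The squamous, myeloid, fibroblast and endothelial lists are given mainly by counts and sums, and some genes of the lists are not reported here. TFCP2, TFCP2L1, UBP1, OVOL2, BNC2, ELF1, ELF4, CSF3R, CDH5 and CLDN5 were added after their values were seen. The factors and lists were chosen with earlier results of these data known. Of 163 listed genes 159 were measured, 1 of them through a LOC name and the RefSeq table of mChlSab1.0.hap1. Alternatives covered the scaling, the read minimum, the fold, the pseudocount, the filter on low values and thinning to the smallest total.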

Additional observations from a re-analysis of the deposited data

How the results depend on the processing

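Under the 3 other scalings and with a minimum of 10 reads, the factors apart were EHF and BNC1 for stillborn against alive and BNC1 in the other comparisons. At 2-fold the counts were 4, 3 and 3 in place of 2, 1 and 1. With all libraries thinned to the smallest of the totals the count for stillborn against spontaneous abortion was 0, since BNC1 then had fewer than 30 reads in the higher library. The median log2 ratio of the factors for stillborn over alive was 0.51 with log2(RPKM + 1) and 0.56 on total reads alone, against 0.71. For spontaneous abortion over alive it was 0.34 with log2(RPKM + 1), against 0.47. For stillborn over spontaneous abortion it reversed from 0.04 to -0.083 on total reads alone, which also moved the median of all genes to -0.17 for stillborn over alive and -0.14 for stillborn over spontaneous abortion. Of the 30 single ratios, 22 stayed within their counting interval on total reads, 30 with median-of-ratios factors and 13 with scaling to epithelial junction genes. The last scaling rests on a summed RPKM that was mostly RAB25. It moved the median of all genes to -0.32 for stillborn over alive, 0.14 for spontaneous abortion over alive and -0.47 for stillborn over spontaneous abortion. It also moved the share of higher among all genes apart from 59.3% to 46.1% for stillborn against alive and from 63.1% to 40.2% for stillborn against spontaneous abortion. Under it GRHL1 (0.979), ELF3 (0.948), GRHL3 (0.748) and KLF5 (0.752) passed to the lower side for stillborn over spontaneous abortion. TP63 passed to 0.996 for spontaneous abortion over alive on total reads. No paired analysis was possible because each status has 1 library and the labels give no replicate numbers. No library could be left out, for the same reason. Depth limits TP63 and OVOL1 most, with 37 reads or fewer in every library.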

Other observations

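Of the 6 repressors of epithelial genes on the list, 2 gave most of the reads. SNAI2, a zinc finger repressor of neural crest, mesenchyme and basal keratinocytes, was at RPKM 1147 in the stillborn library, 1222 in the abortion library and 865 in the alive library, far above any of the 10 epithelial factors. Its ratio over alive was 1.48 (1.46 to 1.51) in the stillborn and 1.45 (1.43 to 1.47) in the abortion library, beside 1.44 and 1.46 for KLF4. ZEB2, a repressor that macrophages also make, was at 3.26, 0.230 and 0.320, and was 11.4-fold higher in the stillborn than in the alive library (9.68 to 13.5). ZEB1 was at 0.0571, 0.0606 and 0.173, with the alive library highest, as for BNC1. SNAI1 and TWIST1 had at most 4 reads in any library and TWIST2 had 0.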
